A study of Mus musculus with 14 samples.

Results

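The 32 genes described here encode proteins of homologous recombination (19 genes) and of the Fanconi anemia pathway (13 genes). They were chosen by name from a list of symbols, and all 32 were found among the 24345 gene symbols of the expression tables and the 24394 gene symbols of the RNA immunoprecipitation (RIP) tables. The study measured 7 groups of mouse cells with 2 libraries each. The mESC group held wild type, untreated embryonic stem cells of a line labelled home made, grown on inactivated fibroblast feeders with leukemia inhibitory factor and passaged on gelatin before harvest. The MEF group held wild type, untreated primary embryonic fibroblasts. The Dppa5a_KD group held untreated stem cells with a knockdown of Dppa5a, a KH-domain protein of pluripotent cells, and the KD_control group held wild type, untreated stem cells. No source used here names the knockdown method. The RIP libraries held RNA recovered from stem cells that overexpressed 3Flag-Dppa5a, a genotype shared by all 3 RIP groups. The Flag_RIP group was untreated and precipitated with a Flag antibody, the HU_Flag_RIP group was given a treatment labelled HU and precipitated with the same antibody, and the IgG_RIP group was untreated and precipitated with control IgG. No source used here gives the dose and time of HU. Nothing in the labels says that the 2 libraries of a group came from separate cultures, so a p-value here reflects only how far these libraries differ, which may be technical.

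Homologous recombination repairs broken or stalled DNA by copying an intact sister molecule. Nucleases first resect the broken end to single-stranded DNA, BRCA1 and its partners bring BRCA2, and BRCA2, the complexes of the related proteins RAD51B, RAD51C, RAD51D, XRCC2 and XRCC3 (called the paralogs here, since they are paralogs of one another) and further cofactors promote pairing with the matching sequence. The Fanconi anemia pathway removes crosslinks between the DNA strands. A core complex places ubiquitin on FANCD2 and FANCI, and this modified pair recruits nucleases that cut the crosslink out before recombination repairs the break. Both pathways act mainly in S and G2 phase, and embryonic stem cells spend much of their short cycle in S phase.

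The promoters of 27 of the 32 genes had an entry in the RefSeq table, which gives 250 bases before and 50 after each annotated start on build GRCm38.p6, written on the strand of the gene. Short motifs of 3 kinds were searched on both strands: E2F-type octamers (TTTCCCGC, TTTCGCGC, TTTGCCGC and TTTGGCGC), the CCAAT box bound by NF-Y, and CHR-type hexamers (TTTGAA and TTCGAA). E2F factors and CHR-binding complexes are known regulators of genes that peak in S phase and in G2 and M phase. The windows below belong to the 5 genes with an entry that were highest in stem cells relative to fibroblasts, and to Rad51c, one of the paralogs, with an E2F-type octamer just after its start. Capitals mark E2F-type octamers and CCAAT boxes on either strand, and the other strand's letters read GCGGGAAA and ATTGG.
Dna2, chr10:62946779-62947078, + strand: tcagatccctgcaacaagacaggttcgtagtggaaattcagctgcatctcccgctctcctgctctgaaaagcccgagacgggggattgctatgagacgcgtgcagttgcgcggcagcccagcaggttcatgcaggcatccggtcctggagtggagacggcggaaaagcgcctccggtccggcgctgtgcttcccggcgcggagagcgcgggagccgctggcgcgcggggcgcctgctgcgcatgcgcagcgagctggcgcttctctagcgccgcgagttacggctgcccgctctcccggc
Brca2, chr5:150522371-150522670, + strand: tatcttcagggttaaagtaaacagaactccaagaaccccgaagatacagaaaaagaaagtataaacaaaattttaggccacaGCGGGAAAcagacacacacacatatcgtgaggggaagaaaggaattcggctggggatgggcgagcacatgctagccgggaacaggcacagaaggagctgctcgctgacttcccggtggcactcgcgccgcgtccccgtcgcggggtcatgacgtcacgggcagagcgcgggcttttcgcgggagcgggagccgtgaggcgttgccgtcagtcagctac
Fanci, chr7:79392088-79392387, + strand: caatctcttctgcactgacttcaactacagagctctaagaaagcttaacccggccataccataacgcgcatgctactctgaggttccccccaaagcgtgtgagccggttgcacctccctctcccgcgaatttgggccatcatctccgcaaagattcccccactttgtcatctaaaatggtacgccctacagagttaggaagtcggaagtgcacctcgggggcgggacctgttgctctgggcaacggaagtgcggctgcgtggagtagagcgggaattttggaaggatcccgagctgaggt
Rad54l, chr4:116123640-116123939, - strand: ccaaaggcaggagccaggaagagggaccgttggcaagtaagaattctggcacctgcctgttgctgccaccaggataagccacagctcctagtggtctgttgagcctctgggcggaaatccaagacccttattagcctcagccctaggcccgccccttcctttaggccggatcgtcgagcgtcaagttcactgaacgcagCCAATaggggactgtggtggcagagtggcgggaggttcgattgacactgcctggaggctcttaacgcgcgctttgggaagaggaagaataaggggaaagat
Ube2t, chr1:134962315-134962614, + strand: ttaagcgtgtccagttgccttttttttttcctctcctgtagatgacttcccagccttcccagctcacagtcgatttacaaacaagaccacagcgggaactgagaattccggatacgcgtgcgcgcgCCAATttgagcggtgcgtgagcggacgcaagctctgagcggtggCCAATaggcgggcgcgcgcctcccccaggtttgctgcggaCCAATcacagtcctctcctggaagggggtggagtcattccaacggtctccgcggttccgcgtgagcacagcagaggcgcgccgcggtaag
Rad51c, chr11:87404457-87404756, - strand: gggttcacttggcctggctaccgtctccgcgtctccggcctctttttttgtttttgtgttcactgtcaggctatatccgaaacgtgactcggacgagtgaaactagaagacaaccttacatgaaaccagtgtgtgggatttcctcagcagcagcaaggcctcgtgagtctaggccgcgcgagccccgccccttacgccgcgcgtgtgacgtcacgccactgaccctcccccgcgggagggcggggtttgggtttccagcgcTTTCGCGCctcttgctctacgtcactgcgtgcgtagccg

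An E2F-type octamer stood in the windows of 4 of the 27 genes (14.8%), namely Brca2, Bard1, Rad51c and Fancg. The same octamers stood in 2.60% of all 27025 genes with a window and in 4.77% of the 9734 such genes expressed at the level tested in stem cells or fibroblasts. Brca2 carried it 168 bases before the start on the opposite strand, Bard1 at 209 and Fancg at 52 bases before the start, and Rad51c 12 bases after it in the window shown. Another Rad51c window, chr11:87404905-87405204, covers the outer end of the gene's locus (87404954). It held an octamer on the opposite strand, 5 bases before its start. A CCAAT box was found in 18 of the 27 genes (66.7%), against 41.1% of all genes with a window and 43.2% of those tested. The Ube2t window held 3 CCAAT boxes on its own strand, at 124, 80 and 40 bases before the start. The Rad54l window held 1, and the Dna2, Brca2 and Fanci windows held none. CHR-type hexamers were found in 2 of the 27 genes (7.41%), Bard1 and Rad51b, against 21.7% of all genes and 16.0% of those tested. These are matches of letters and no binding was measured. With the first T left off the octamer, the match is looser and 14 of the 27 genes (51.9%) carried it, against 10.9% of all genes and 19.8% of those tested.

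The RNA-seq values are FPKM (fragment counts scaled to transcript length and library depth), and fold changes are on the log2(FPKM + 1) scale, which understates the change of low genes. Depth, estimated from the confidence bounds deposited with the FPKM, lay between 18330606 and 25335021 effective fragments per library, and a gene described here rested on 48.7 (Rad51b) to 5601 (Fancd2) of them in a library, with a median of 707. Dppa5a itself read 101 and 358 FPKM in Dppa5a_KD, against 5126 and 5417 FPKM in KD_control. It read 1485 and 1818 FPKM in mESC, against 0 and 0.0871 FPKM in MEF. All 10 stem cell markers were higher and all 10 fibroblast markers were lower in mESC than in MEF, with Pou5f1 at 682 and 1000 FPKM in mESC. The MEF libraries list Pou5f1 at 0. No gene of the 32 was listed at 0 in any library. The loci of 8 of them overlap another gene (Rad51c, Xrcc3, Rad54l, Rad54b, Fanca, Fancc, Fanci and Fancl), and whether strand was kept is not given, so reads of the overlapping genes cannot be told apart.

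**Figure D1:**
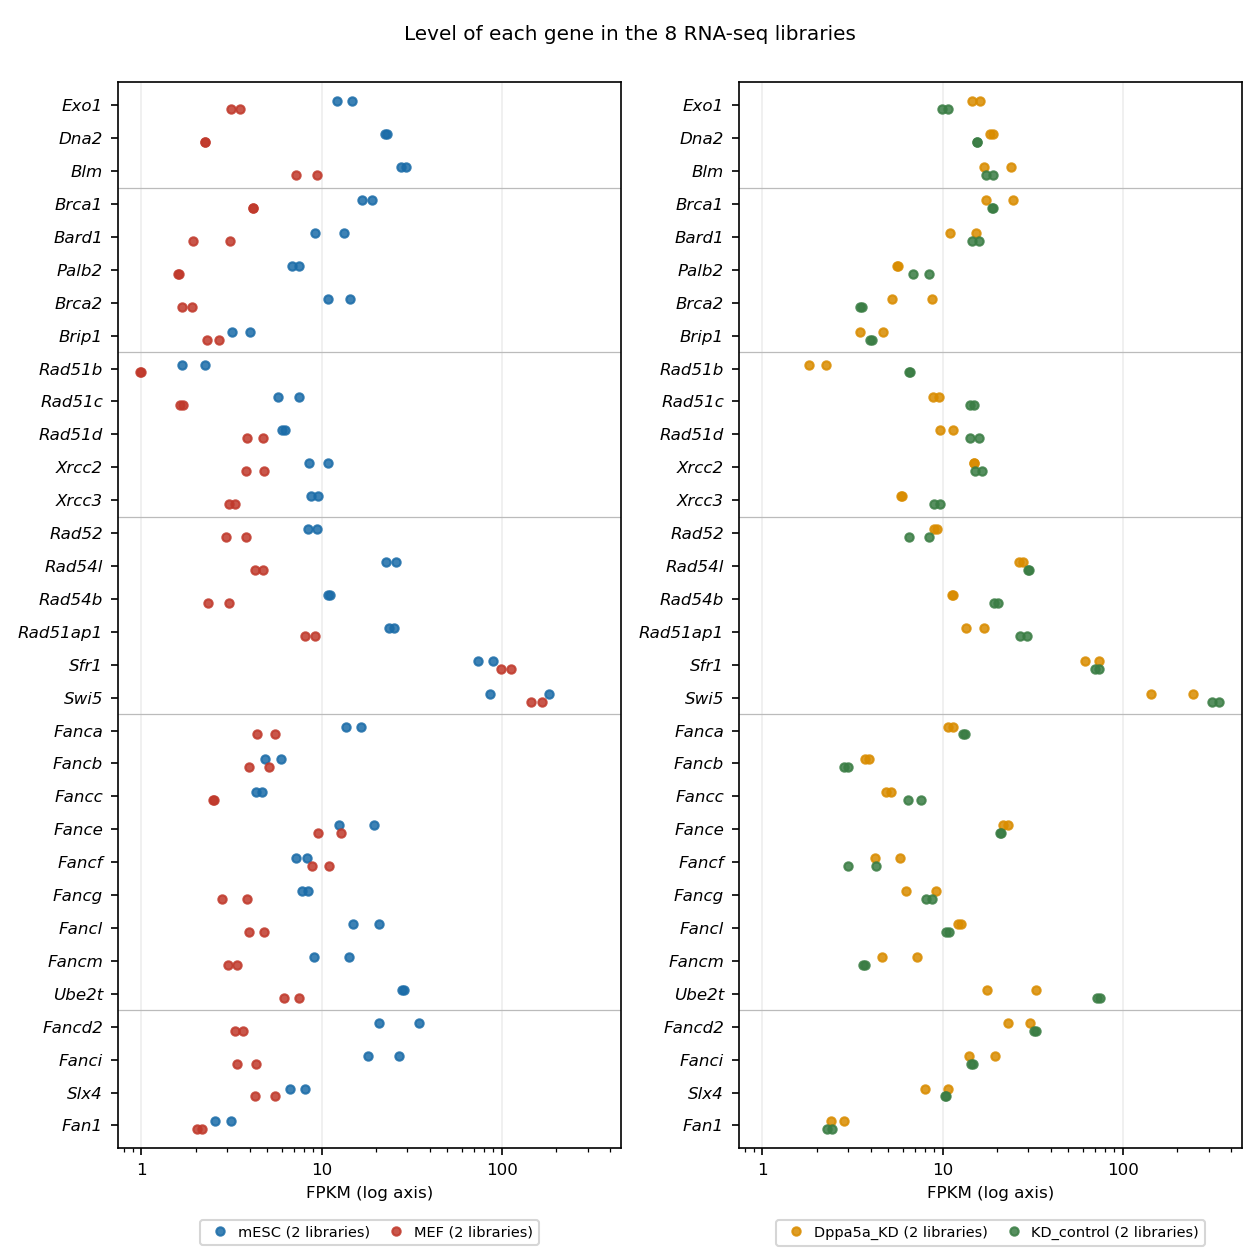
FPKM (log axis) of the 32 genes, by role from end resection at the top to nucleases at the bottom, with 1 point per library; the left panel shows mESC and MEF and the right panel Dppa5a_KD and KD_control. Dna2 sits at 23.1 and 22.5 FPKM in mESC, far right of its MEF points at 2.26 and 2.25, whereas the points of Swi5 and Sfr1, the highest genes, interleave or lie to the left.

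The first comparison set stem cells against fibroblasts. Of the 32 genes, 23 were higher in mESC than in MEF and 0 were lower (limma, Benjamini-Hochberg adjusted p under 0.05 over all genes tested). Over all 12875 genes tested, 56.7% were called, 30.6% as higher and 26.1% as lower. All mESC libraries lay above all MEF libraries for 27 of the 32 genes and below them for 2, against 44.2% and 35.6% of all genes tested. The median log2 fold change of the 32 genes was 1.42, and that of all genes tested was 0.15. End resection, the BRCA axis, the paralogs, the cofactors and both parts of the Fanconi pathway were each represented among the genes that rose. In bulk samples, a different share of cells that express a gene and a different amount of RNA per cell cannot be told apart.

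All 3 end-processing genes rose. Dna2, a nuclease and helicase of long-range resection, read 23.1 and 22.5 FPKM in mESC, against 2.26 and 2.25 FPKM in MEF. This was the largest difference of the 32, a log2 fold change of 2.87 ± 0.19 (SE; limma adjusted p = 0.00023). Exo1, the other long-range resection nuclease, read 14.7 and 12.1 FPKM in mESC, against 3.16 and 3.54 FPKM in MEF. Blm, the Bloom syndrome helicase that works with DNA2, read 29.4 and 27.6 FPKM in mESC, against 7.21 and 9.44 FPKM in MEF. No library of 1 group overlapped the other group for these 3 genes, and the log2 fold changes of Exo1 and Blm were 1.73 and 1.67 (limma adjusted p = 0.0016 and 0.0022).

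In the BRCA axis, 4 of 5 genes rose. Brca1, a ubiquitin ligase that commits breaks to recombination, read 19.0 and 16.8 FPKM in mESC, against 4.16 and 4.18 FPKM in MEF. Bard1, its obligate partner, read 13.4 and 9.14 FPKM in mESC, against 1.93 and 3.11 FPKM in MEF. Each mESC library lay above each MEF library for both partners, with log2 fold changes of 1.87 ± 0.19 and 1.80 ± 0.28 (SE; limma adjusted p = 0.00098 and 0.0039). Palb2, which bridges BRCA1 to BRCA2, read 6.81 and 7.49 FPKM in mESC, against 1.59 and 1.62 FPKM in MEF. Brca2, a mediator of strand exchange, read 14.3 and 10.9 FPKM in mESC, against 1.68 and 1.91 FPKM in MEF. Its log2 fold change of 2.27 ± 0.22 (SE; limma adjusted p = 0.00075) was the largest of the axis. Brip1, the helicase bound to BRCA1, did not pass the test, with 4.0 and 3.17 FPKM in mESC against 2.32 and 2.69 FPKM in MEF and a log2 fold change of 0.38 (limma adjusted p = 0.15).

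Among the 5 paralogs, which assemble into small complexes that promote strand exchange, 4 rose. Rad51c, shared by the complexes, read 7.46 and 5.75 FPKM in mESC, against 1.71 and 1.64 FPKM in MEF. Xrcc3, its direct partner, read 8.72 and 9.50 FPKM in mESC, against 3.08 and 3.29 FPKM in MEF. Both differences, with log2 fold changes of 1.50 ± 0.20 and 1.27 ± 0.19 (SE), passed the test (limma adjusted p = 0.0024 and 0.0031). Xrcc2 read 10.9 and 8.52 FPKM in mESC, against 3.81 and 4.79 FPKM in MEF. Rad51b was the lowest of the 32 genes in both cell types, at 2.26 and 1.68 FPKM in mESC against 0.995 and 0.986 FPKM in MEF. Its call was among the weakest, at a log2 fold change of 0.57 ± 0.18 (SE; limma adjusted p = 0.040), and it was lost without a filter on low values, under both other scalings and without either MEF library, with adjusted p reaching 0.17. Rad51d read 6.07 and 6.30 FPKM in mESC, against 3.85 and 4.71 FPKM in MEF, and did not pass the test (log2 fold change 0.45, limma adjusted p = 0.10).

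The cofactors divided into 4 that rose and 2 that did not pass. Rad54l, the motor protein that drives strand invasion, read 25.7 and 22.7 FPKM in mESC, against 4.74 and 4.25 FPKM in MEF. Its relative Rad54b read 10.8 and 11.1 FPKM in mESC, against 2.34 and 3.05 FPKM in MEF. The log2 fold changes of these related translocases were 2.20 ± 0.20 and 1.70 ± 0.20 (SE; limma adjusted p = 0.00064 and 0.0016). Rad51ap1, which stimulates strand pairing, read 23.7 and 25.3 FPKM in mESC, against 8.14 and 9.22 FPKM in MEF. Rad52, an annealing protein, read 9.47 and 8.37 FPKM in mESC, against 2.94 and 3.80 FPKM in MEF. Sfr1 and Swi5, which form one complex that promotes strand exchange, stood apart from the rest of the group: they were the most abundant of the 32 genes and had negative log2 fold changes of -0.39 and -0.31 that did not pass the test (limma adjusted p = 0.20 and 0.54). Sfr1 read 73.8 and 89.0 FPKM in mESC, against 99.6 and 113 FPKM in MEF. Swi5 read 86.4 and 183 FPKM in mESC, against 167 and 146 FPKM in MEF, so its mESC libraries lay on either side of the MEF libraries.

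In the Fanconi core complex and its ubiquitin transfer step, 6 of 9 genes rose. Ube2t, the E2 enzyme that hands ubiquitin to the complex, read 28.0 and 28.6 FPKM in mESC, against 6.19 and 7.47 FPKM in MEF. Fancl, the E3 ligase subunit, read 20.7 and 15.0 FPKM in mESC, against 3.97 and 4.79 FPKM in MEF. The enzymes that perform the ubiquitin transfer thus had the highest log2 fold changes of this group, 1.91 ± 0.20 and 1.80 ± 0.24 (SE; limma adjusted p = 0.0011 and 0.0023). Fancm, the translocase that anchors the complex to DNA, read 14.1 and 9.14 FPKM in mESC, against 3.03 and 3.39 FPKM in MEF. Fanca read 13.6 and 16.5 FPKM in mESC, against 5.48 and 4.39 FPKM in MEF. Fancg, which binds FANCA, followed at a log2 fold change of 1.08 (limma adjusted p = 0.0085), with 8.39 and 7.74 FPKM in mESC against 3.83 and 2.81 FPKM in MEF. Fancc rose least, at 4.68 and 4.35 FPKM in mESC against 2.53 and 2.49 FPKM in MEF (0.65 ± 0.18 on the log2 scale, SE; limma adjusted p = 0.025), and lost its call under median-ratio scaling and without either MEF library. The core subunits Fancb, Fance and Fancf did not pass the test, with log2 fold changes of 0.21, 0.47 and -0.31.

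Both members of the ubiquitinated pair rose, and Slx4 and Fan1 did not pass. Fancd2 read 34.8 and 20.8 FPKM in mESC, against 3.33 and 3.66 FPKM in MEF. Fanci read 27.1 and 18.1 FPKM in mESC, against 3.39 and 4.32 FPKM in MEF. In both genes the first mESC library was the higher one, and all mESC libraries lay above all MEF libraries, with log2 fold changes of 2.64 ± 0.29 and 2.26 ± 0.27 (SE; limma adjusted p = 0.0012 and 0.0015). Slx4, the scaffold of crosslink-cutting nucleases, read 6.69 and 8.08 FPKM in mESC, against 5.51 and 4.27 FPKM in MEF, and Fan1, a nuclease recruited to ubiquitinated FANCD2, had a log2 fold change of 0.31 (limma adjusted p = 0.20).

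Other genes of these pathways were higher in mESC for the most part. Of 53 tested genes from a list of other recombination and Fanconi genes, 31 were higher and 1 was lower in mESC, with a median log2 fold change of 0.86. By the smallest adjusted p these were led by Rpa2, a subunit of the protein that coats single-stranded DNA, at 72.0 and 74.6 FPKM in mESC against 18.3 and 17.9 FPKM in MEF, and by Rfwd3, the ubiquitin ligase that acts on that coat, at 93.2 and 76.6 FPKM in mESC against 17.2 and 18.9 FPKM in MEF. BC055324, Mnd1, Dmc1 and Eme1 came next, with log2 fold changes of 2.29, 1.57, 1.39 and 1.49. Replication genes stood higher as well: 24 of 31 S phase genes were higher and 0 were lower (median log2 fold change 1.26), and 9 of 16 G2 and M phase genes were higher and 0 were lower (median 0.77). The summed level of the S phase list was 2531 and 2899 FPKM in mESC, against 1044 and 1116 FPKM in MEF. The part of this difference in the rise of the 23 genes was not tested. With only 1 MEF library in the fit fewer genes were called, both among the genes described here and over all genes tested. Without the first or second MEF library, the median log2 fold change of the genes described here was 1.41 or 1.40. That of all genes tested was 0.16 or 0.13. Brca1, Brca2, Rad54l, Dna2, Fancd2 and Ube2t kept their calls under every alternative run.

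**Figure D2:**
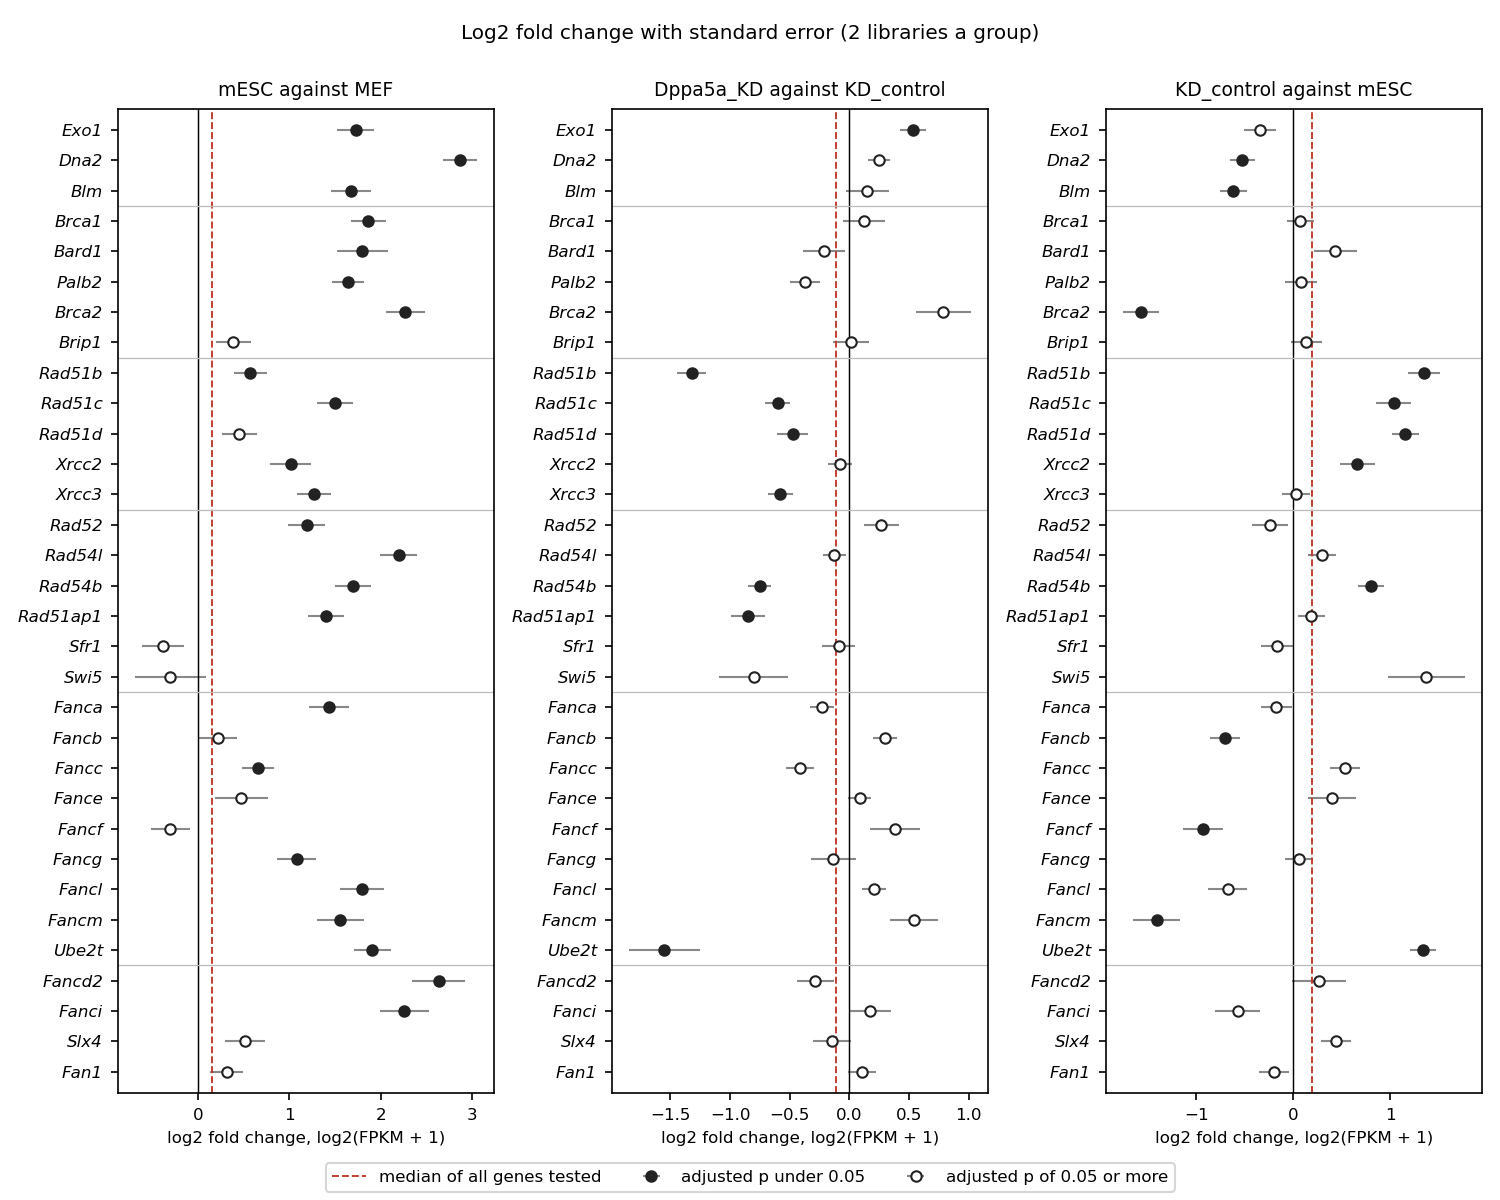
Log2 fold change (log2(FPKM + 1) scale, bars are SE) of the 32 genes in mESC against MEF (left), Dppa5a_KD against KD_control (middle) and KD_control against mESC (right), with filled points for adjusted p under 0.05 and the dashed line at the median of all genes tested. In the left panel 23 filled points lie to the right of 0; in the middle panel 7 lie to the left and 1 to the right; in the right panel 6 lie on each side.

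The second comparison asked what the Dppa5a knockdown did to these genes in stem cells. Of the 32 genes, 7 fell in Dppa5a_KD relative to KD_control (Rad51b, Rad51c, Rad51d, Xrcc3, Rad51ap1, Rad54b and Ube2t) and 1 rose (Exo1). Over all 12345 genes tested, 37.4% were called, 23.8% as lower and 13.6% as higher, so the 7 of 32 lower genes (21.9%) were close to the share of all genes. Both Dppa5a_KD libraries lay below both KD_control libraries for 14 of the 32 genes and above them for 8, against 44.8% and 30.8% of all genes tested. The median log2 fold change was -0.11 for the 32 genes and -0.11 for all genes tested. By role, 4 of 5 paralogs fell, as did 2 of 6 cofactors and 1 of 9 genes of the core complex and ubiquitin transfer. None of the 5 BRCA axis genes was called, and neither were Fancd2, Fanci, Slx4 and Fan1. Only Rad51b and Ube2t kept their calls under every alternative run, and the count of lower genes was 4 after rescaling to a common sum of FPKM.

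Rad51b fell to 1.81 and 2.24 FPKM in Dppa5a_KD, against 6.58 and 6.52 FPKM in KD_control. This was the largest change of the paralogs, a log2 fold change of -1.32 ± 0.12 (SE; limma adjusted p = 0.0061). Rad51c read 8.90 and 9.53 FPKM in Dppa5a_KD, against 14.9 and 14.1 FPKM in KD_control. Xrcc3 read 5.87 and 5.92 FPKM in Dppa5a_KD, against 8.96 and 9.67 FPKM in KD_control. The partners Rad51c and Xrcc3 had log2 fold changes of -0.60 ± 0.10 and -0.58 ± 0.10 (SE; limma adjusted p = 0.015 and 0.016). Rad51d read 9.68 and 11.5 FPKM in Dppa5a_KD, against 14.3 and 15.8 FPKM in KD_control (log2 fold change -0.48, limma adjusted p = 0.042). Xrcc2, the partner of RAD51D, read 14.9 and 15.0 FPKM in Dppa5a_KD, against 15.1 and 16.6 FPKM in KD_control. It was the paralog that did not pass the test, with a log2 fold change of -0.08 that turned to 0.06 after rescaling to a common sum of FPKM. The calls of Rad51c and Xrcc3 were lost under that rescaling and without either KD_control library, with adjusted p reaching 0.20 and 0.24. Rad51d lost its call under these and also without a filter, under median-ratio scaling and with all 8 RNA-seq libraries in the fit, with adjusted p reaching 0.40. Rad51b kept its call under every alternative run, with log2 fold changes between -1.65 and -1.21.

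Among the cofactors, Rad51ap1 fell to 13.5 and 16.9 FPKM in Dppa5a_KD, against 26.8 and 29.3 FPKM in KD_control. Rad54b fell to 11.4 and 11.3 FPKM in Dppa5a_KD, against 19.3 and 20.2 FPKM in KD_control. The log2 fold changes were -0.85 ± 0.14 and -0.75 ± 0.10 (SE; limma adjusted p = 0.014 and 0.0084). Rad54b lost its call after rescaling to a common sum and without either KD_control library, with adjusted p reaching 0.085, and Rad51ap1 lost its call without the second KD_control library (limma adjusted p = 0.052). The paralogous Rad54l differed little, at 28.1 and 26.6 FPKM in Dppa5a_KD against 29.7 and 30.1 FPKM in KD_control (log2 fold change -0.13, limma adjusted p = 0.35). Swi5 read 143 and 246 FPKM in Dppa5a_KD, against 314 and 343 FPKM in KD_control, and did not pass the test (-0.80 ± 0.29 on the log2 scale, SE; limma adjusted p = 0.087), whereas its partner Sfr1 had a log2 fold change of -0.09. Over the 11 alternatives run, Swi5 kept its direction, at log2 fold changes from -1.19 to -0.42, and passed in 4.

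The largest fall of all 32 genes was that of Ube2t, which read 17.7 and 33.2 FPKM in Dppa5a_KD, against 74.5 and 71.7 FPKM in KD_control (-1.55 ± 0.30 on the log2 scale, SE; limma adjusted p = 0.019). The Dppa5a_KD values of this gene lay far apart, but both were below both KD_control values. The call held under every alternative run, with log2 fold changes between -1.99 and -1.11. No other gene of the Fanconi core was called. Fancc came closest, at 5.15 and 4.84 FPKM in Dppa5a_KD against 6.46 and 7.55 FPKM in KD_control (limma adjusted p = 0.053). The substrates of the ubiquitin transfer did not pass either, Fancd2 at 30.6 and 23.1 FPKM in Dppa5a_KD against 32.3 and 32.9 FPKM in KD_control, and Fanci at 19.6 and 14.0 FPKM in Dppa5a_KD against 14.7 and 14.4 FPKM in KD_control.

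Exo1 was the gene that rose, to 16.2 and 14.6 FPKM in Dppa5a_KD, against 9.92 and 10.7 FPKM in KD_control (0.53 ± 0.11 on the log2 scale, SE; limma adjusted p = 0.022), and it lost the call after rescaling to a common sum and without either KD_control library. Brca2 had a larger log2 fold change but a wider spread, at 8.74 and 5.24 FPKM in Dppa5a_KD against 3.46 and 3.58 FPKM in KD_control (0.79 ± 0.23 on the log2 scale, SE; limma adjusted p = 0.054). It passed with all 8 RNA-seq libraries in the fit (limma adjusted p = 0.046), without either Dppa5a_KD library and without the second KD_control library, with adjusted p between 3.5e-05 and 0.10 over the alternatives run. Brca1 and Bard1 had log2 fold changes of 0.12 and -0.21, and each reversed without 1 of the Dppa5a_KD libraries.

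**Figure D3:**
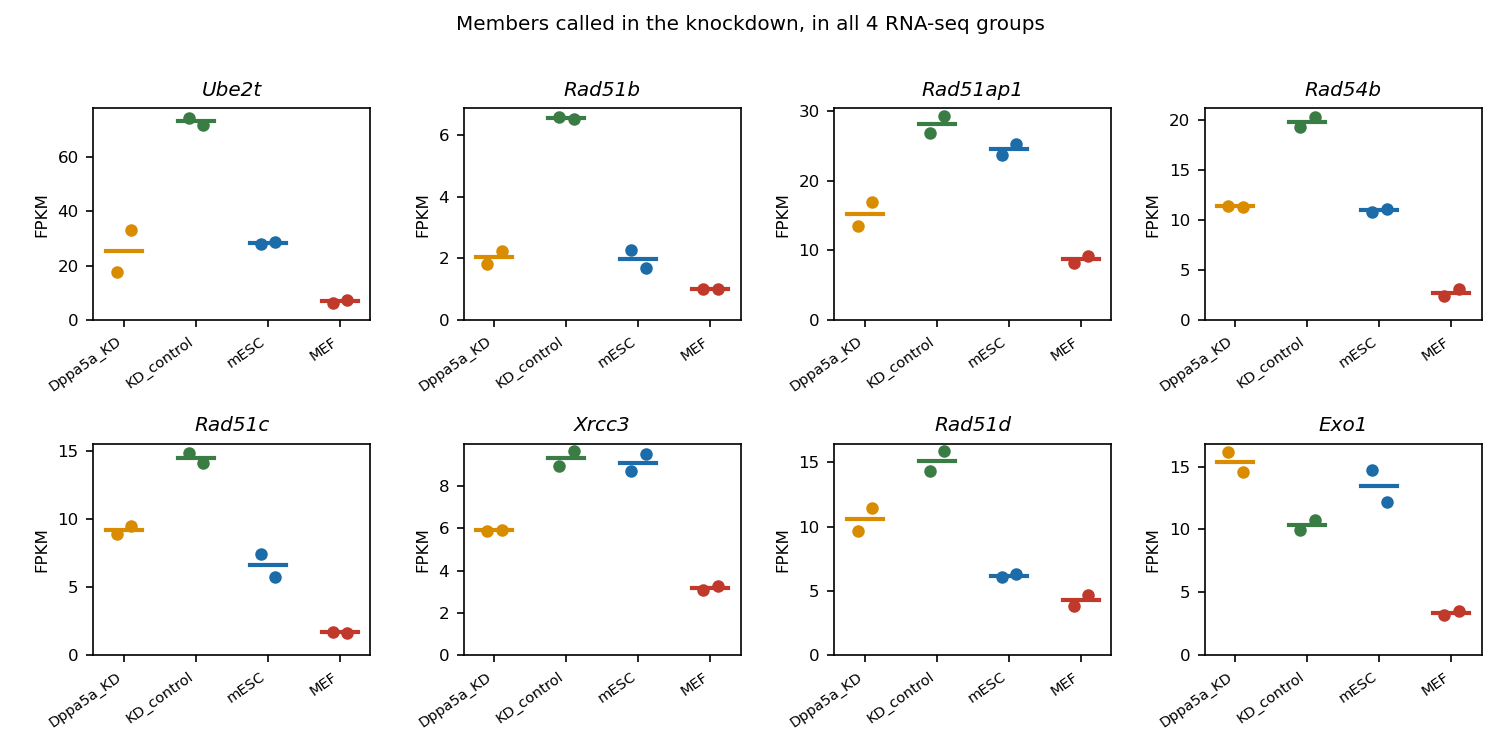
FPKM (linear axes from 0) of the 8 genes called in the knockdown comparison, with 1 point per library and a line at the mean of each group, in Dppa5a_KD, KD_control, mESC and MEF. For Rad51b the Dppa5a_KD points at 1.81 and 2.24 lie beside the mESC points at 2.26 and 1.68, and the KD_control points at 6.58 and 6.52 stand above both.

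The rest of the pathway did not share 1 direction in the knockdown. Of the 53 tested other pathway genes, 10 were higher and 7 were lower, with a median log2 fold change of 0.05. Rtel1, a helicase that takes recombination intermediates apart, read 22.5 and 20.2 FPKM in Dppa5a_KD, against 10.2 and 9.31 FPKM in KD_control. Uimc1, a subunit of the BRCA1-A complex, read 8.27 and 8.74 FPKM in Dppa5a_KD, against 15.6 and 15.6 FPKM in KD_control. Trip13, Ercc4, Faap100 and Gen1 were higher, with log2 fold changes of 0.91, 0.89, 0.81 and 1.02. Of the cell cycle lists, 5 of 31 S phase genes were higher and 1 was lower, and 0 of 16 G2 and M phase genes were higher and 2 were lower. None of the 10 stem cell markers was called, with a limma adjusted p of 0.094 at the smallest. Of the 10 fibroblast markers, 3 were high enough to test and 2 of these were lower. Their summed level was 170 and 139 FPKM in Dppa5a_KD, 209 and 208 FPKM in KD_control, 73.0 and 82.2 FPKM in mESC and 6893 and 5914 FPKM in MEF, and Col1a1 was at 0.487 and 0.405 FPKM in Dppa5a_KD, against 0.775 and 0.771 FPKM in KD_control. The part of these cell cycle and fibroblast genes in the result was not tested.

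Implied transcript length moved with the knockdown fold changes. It was taken from the effective fragments per FPKM and is not a measured length. The deposited bounds it rests on also carry the uncertainty between isoforms. The genes tested were ranked by implied length and divided into 10 equal bins. The median log2 fold change was -0.35 in the bin of the shortest implied lengths and 0.06 in that of the longest. The 7 genes that fell lay in bins 1 to 6 and Exo1 lay in bin 10. Among all genes tested, the share called as lower was highest in bin 4 (28.6%), and was 18.5% in bin 1 and 13.9% in bin 10. Set against the median of its own bin, Ube2t was lower by a log2 difference of -1.20, Rad51b by -1.18, Rad51ap1 by -0.71, Rad54b by -0.63, Xrcc3 by -0.46, Rad51c by -0.46 and Rad51d by -0.34, and Exo1 was higher by 0.47. The part of transcript length, implied or real, in these calls was not tested. More genes were called without either Dppa5a_KD library and fewer without either KD_control library, both among the genes described here and over all genes tested. Without the first or second Dppa5a_KD library, the median log2 fold change of the genes described here was -0.14 or -0.03. That of all genes tested was -0.08 or -0.14. Without the first or second KD_control library, the medians were -0.14 or -0.07 for the genes described here and -0.11 in both fits for all genes tested.

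**Figure D4:**
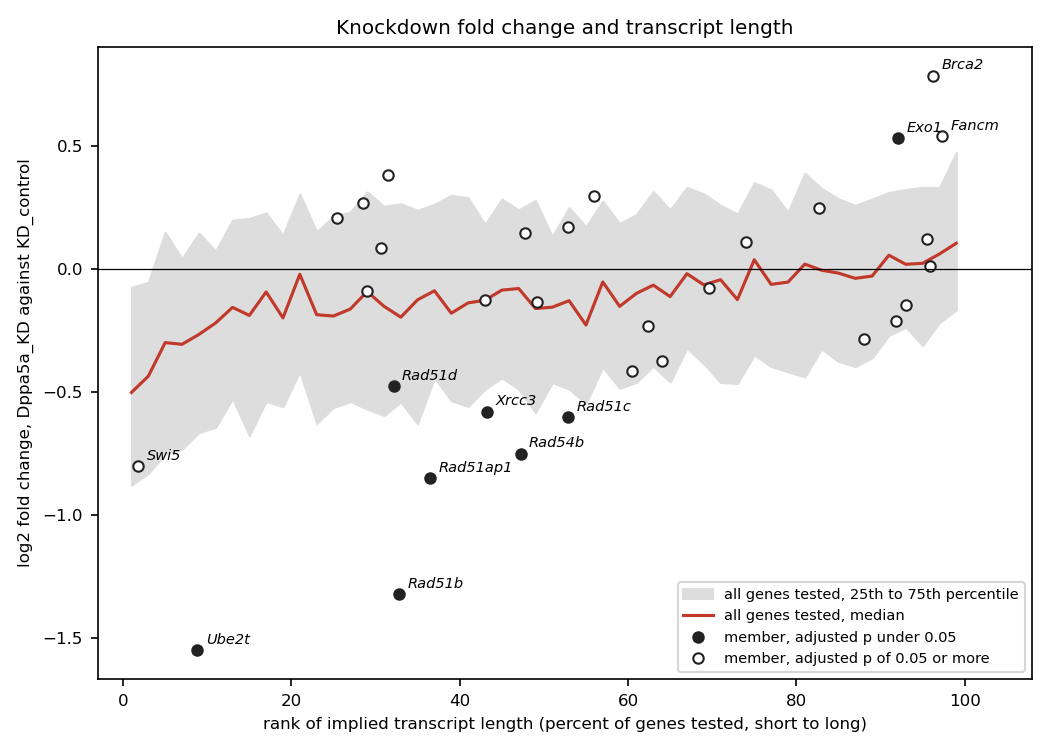
Log2 fold change of Dppa5a_KD against KD_control by rank of implied transcript length (percent of genes tested, short to long), with the median and the 25th to 75th percentile of all genes tested as a line and a band and the 32 genes as points, filled where adjusted p was under 0.05. The line climbs with implied length, and the points of Ube2t at -1.55 and Rad51b at -1.32 lie below the band.

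The labels describe both KD_control and mESC as wild type, untreated stem cells of a home made line, so the 2 groups were set side by side to see how the levels of these genes differ between such cultures. Relative to mESC, 6 of the 32 genes were higher and 6 were lower in KD_control, where 26.5% of all 12595 genes tested were higher and 15.0% were lower (41.4% called in all). Both KD_control libraries lay above both mESC libraries for 13 of the 32 genes, against 47.9% of all genes tested, and below them for 11 of the 32, against 4033 of the 12595 genes tested. This comparison shares the KD_control libraries with the knockdown comparison and the mESC libraries with the comparison against MEF, so the values are given side by side only. Of the 10 stem cell markers, 3 were higher and 2 were lower in KD_control, with log2 fold changes from -3.64 to 1.81. Of the 10 fibroblast markers, 4 were high enough to test, and 2 of these were higher and 0 were lower. The part of these marker differences in the result was not tested. The groups also differ beyond their labels in the Y-linked gene Eif2s3y, which was chosen after its values were seen. It was listed at 0 in all KD_control, Dppa5a_KD and RIP libraries. In mESC it read 43.2 and 41.2 FPKM, and in MEF 7.29 and 8.76 FPKM.

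The 6 higher genes included 4 of the 5 paralogs. Rad51b, Rad51d, Rad51c and Xrcc2 had log2 fold changes of 1.35, 1.16, 1.04 and 0.66 in KD_control relative to mESC (limma adjusted p = 0.0098, 0.010, 0.017 and 0.046). Ube2t and Rad54b were the other 2, with log2 fold changes of 1.34 and 0.80 (limma adjusted p = 0.0079 and 0.017). Of these 6 genes, Rad51b kept its call without each of the KD_control libraries and the other 5 lost it without either. Rad51c, Rad54b and Xrcc2 lost their calls after rescaling to a common sum (limma adjusted p up to 0.20), and Xrcc2 also without a filter and under median-ratio scaling. Swi5 had the largest positive log2 fold change of the 32 genes, 1.38, and did not pass the test. It passed in 6 of the 11 alternatives run, with log2 fold changes between 0.84 and 1.91 over all of them. For Rad51b the levels were 1.81 and 2.24 FPKM in Dppa5a_KD, 6.58 and 6.52 FPKM in KD_control and 2.26 and 1.68 FPKM in mESC, so that Dppa5a_KD and mESC overlapped. Ube2t showed the same order, at 17.7 and 33.2 FPKM in Dppa5a_KD, 74.5 and 71.7 FPKM in KD_control and 28.0 and 28.6 FPKM in mESC. Rad54b read 11.4 and 11.3 FPKM in Dppa5a_KD, 19.3 and 20.2 FPKM in KD_control and 10.8 and 11.1 FPKM in mESC. In Rad54b, Rad51c and Rad51d the Dppa5a_KD libraries lay between the KD_control libraries and the mESC libraries, close to mESC in Rad54b. Xrcc3 and Rad51ap1 were not called between KD_control and mESC, with log2 fold changes of 0.03 and 0.19, the first of which was below 0 under both other scalings.

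The 6 lower genes were Brca2, Fancm, Fancf, Fancb, Blm and Dna2. Brca2 read 3.46 and 3.58 FPKM in KD_control, against 14.3 and 10.9 FPKM in mESC (-1.58 ± 0.19 on the log2 scale, SE; limma adjusted p = 0.0096). Fancm read 3.61 and 3.69 FPKM in KD_control, against 14.1 and 9.14 FPKM in mESC (-1.41 ± 0.24 on the log2 scale, SE; limma adjusted p = 0.017). The other 4 had log2 fold changes of -0.93, -0.71, -0.62 and -0.53, in the order named. The calls of these 4 and of Fancm were lost without either KD_control library, and those of Fancf and Fancb also without a filter, with adjusted p reaching 0.50 for Dna2. Brca2 and Rad51b kept their calls under every alternative run. Fewer genes were called without either KD_control library and more without either mESC library, both among the genes described here and over all genes tested. Without the first or second KD_control library, the median log2 fold change of the genes described here was 0.11 or 0.05. That of all genes tested was 0.20 in both fits. Without the first or second mESC library, the medians were 0.10 or 0.01 for the genes described here and 0.11 or 0.28 for all genes tested. Of the 52 other pathway genes tested, 11 were higher and 11 lower in KD_control. Dmc1, the meiotic recombinase, read 9.49 and 9.15 FPKM in KD_control against 1.30 and 2.14 FPKM in mESC, and Gen1, a resolvase, read 2.00 and 2.07 FPKM in KD_control against 11.8 and 7.83 FPKM in mESC. Implied length moved with these fold changes too. The median log2 fold change was 0.38 in the bin of the shortest implied lengths and -0.05 in that of the longest. In mESC against MEF these medians were 0.21 and -0.14. The part of implied length in the calls of these comparisons was not tested.

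The RIP libraries asked which RNAs were recovered with Flag-tagged Dppa5a. None of the 30 genes tested was called in Flag_RIP against IgG_RIP (edgeR quasi-likelihood test, adjusted p under 0.05), where 2.32% of all 10473 genes tested were called, 1.16% in each direction. The number was also 0 in HU_Flag_RIP against IgG_RIP, where 2.86% of all genes were called (1.44% higher and 1.42% lower), and 0 in HU_Flag_RIP against Flag_RIP, where 0.611% were (0.143% higher and 0.468% lower). At an unadjusted p under 0.05, 4, 6 and 0 of the 30 genes passed in the 3 comparisons, against 1607, 1788 and 415 of all 10473 genes tested. DESeq2 called 0 of the genes described here in each. Fancb and Rad51b were too low to be tested. The median log2 fold change of the 30 genes was 0.32 for Flag_RIP against IgG_RIP, 0.45 for HU_Flag_RIP against IgG_RIP and 0.20 for HU_Flag_RIP against Flag_RIP, and that of all genes tested was 0.02, 0.04 and 0.00.

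Depth limits what could be seen. Total counts were 13036568 and 9471217 in Flag_RIP, 9643717 and 7380542 in HU_Flag_RIP and 3473508 and 3705047 in IgG_RIP, and between 77.3% and 89.2% of them fell on 4 abundant RNAs (Rn45s, Rmrp, Rpph1 and Lars2). The 32 genes together held 0.0144% to 0.0311% of the counts, and a single gene had from 1 count (Rad51b) to 256 counts (Swi5) in a library, with a median of 34. Dppa5a mRNA was not enriched with the Flag antibody, at 170 and 160 CPM (counts relative to the TMM-scaled library size) in Flag_RIP and 114 and 114 CPM in HU_Flag_RIP, against 232 and 252 CPM in IgG_RIP. The stem cell marker Pou5f1 read 150 and 155 CPM in Flag_RIP and 143 and 153 CPM in HU_Flag_RIP, against 149 and 138 CPM in IgG_RIP.

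Rad54b came closest to a call. It read 3.40 and 8.62 CPM in Flag_RIP and 3.45 and 6.24 CPM in HU_Flag_RIP, against 0.996 and 1.35 CPM in IgG_RIP. These values rest on 35 and 69 counts in Flag_RIP, 26 and 38 in HU_Flag_RIP and 5 and 8 in IgG_RIP, and all Flag libraries lay above both IgG libraries. The log2 fold change was 2.32 ± 0.71 in Flag_RIP against IgG_RIP (SE; edgeR adjusted p = 0.096) and 2.01 ± 0.72 in HU_Flag_RIP against IgG_RIP (edgeR adjusted p = 0.14). Over the 11 alternatives run, the Rad54b log2 fold change in Flag_RIP against IgG_RIP lay between 1.45 and 2.85. Both Flag_RIP libraries lay above both IgG_RIP libraries for 9 of the 30 genes tested and below them for 3, against 23.8% and 22.9% of all genes tested. The same held for both HU_Flag_RIP libraries in 11 and 4 of the 30 genes, against 23.9% and 23.5% of all genes, and between HU_Flag_RIP and Flag_RIP in 4 and 3, against 15.5% and 15.1%.

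The other genes that reached an unadjusted p under 0.05 were Slx4, Fanca and Brca2 with Flag, and Slx4, Fanca, Xrcc2, Exo1 and Rad51d with Flag after HU. Slx4 read 6.90 and 5.50 CPM in Flag_RIP and 8.77 and 5.58 CPM in HU_Flag_RIP, against 0.796 and 3.55 CPM in IgG_RIP. Fanca read 6.03 and 6.75 CPM in Flag_RIP and 3.85 and 10.7 CPM in HU_Flag_RIP, against 2.99 and 1.86 CPM in IgG_RIP. For these 2 genes the log2 fold changes over IgG_RIP were 1.48 and 1.40 with Flag and 1.69 and 1.58 with Flag after HU, with edgeR adjusted p between 0.16 and 0.26. Brca2 ran the other way, at 11.5 and 6.25 CPM in Flag_RIP and 7.97 and 12.3 CPM in HU_Flag_RIP, against 12.9 and 20.1 CPM in IgG_RIP (log2 fold change -0.90 in Flag_RIP against IgG_RIP, edgeR adjusted p = 0.32). Xrcc2 read 6.32 and 4.75 CPM in Flag_RIP and 14.1 and 4.93 CPM in HU_Flag_RIP, against 4.18 and 2.20 CPM in IgG_RIP. Exo1 read 12.5 and 11.4 CPM in Flag_RIP and 25.4 and 10.7 CPM in HU_Flag_RIP, against 5.97 and 11.2 CPM in IgG_RIP. In both of these the first HU_Flag_RIP library stood far above the second. Rad51d read 2.72 and 4.75 CPM in Flag_RIP and 4.38 and 9.20 CPM in HU_Flag_RIP, against 0.796 and 3.89 CPM in IgG_RIP.

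Of the remaining genes with a mean of at least 20 counts in a RIP group, several had Flag libraries on one side of IgG. Rad51ap1 read 4.28 and 4.75 CPM in Flag_RIP and 3.85 and 4.76 CPM in HU_Flag_RIP, against 2.59 and 1.52 CPM in IgG_RIP. Swi5 read 24.9 and 31.4 CPM in Flag_RIP and 33.3 and 27.1 CPM in HU_Flag_RIP, against 21.1 and 23.5 CPM in IgG_RIP. Dna2 read 7.20 and 8.37 CPM in Flag_RIP and 7.57 and 11.7 CPM in HU_Flag_RIP, against 5.97 and 6.43 CPM in IgG_RIP. Every Flag library of these 3 genes was above both IgG libraries, with log2 fold changes from 0.32 to 1.14 that did not pass the test. Sfr1 read 13.0 and 15.1 CPM in Flag_RIP and 12.2 and 10.8 CPM in HU_Flag_RIP, against 10.8 and 7.28 CPM in IgG_RIP. Brip1 lay below, at 3.11 and 2.37 CPM in Flag_RIP and 3.72 and 4.76 CPM in HU_Flag_RIP, against 5.18 and 6.26 CPM in IgG_RIP. Rad51c lay below as well, at 3.70 and 5.75 CPM in Flag_RIP and 3.72 and 6.24 CPM in HU_Flag_RIP, against 6.57 and 9.65 CPM in IgG_RIP.

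The groups overlapped for most of the others, the BRCA partners first. Brca1 read 3.60 and 9.75 CPM in Flag_RIP and 4.38 and 8.21 CPM in HU_Flag_RIP, against 5.57 and 8.46 CPM in IgG_RIP. Bard1 read 8.56 and 19.7 CPM in Flag_RIP and 9.96 and 11.7 CPM in HU_Flag_RIP, against 10.6 and 12.2 CPM in IgG_RIP. Palb2 read 4.67 and 2.37 CPM in Flag_RIP and 5.58 and 4.60 CPM in HU_Flag_RIP, against 2.99 and 3.05 CPM in IgG_RIP. Neither Brca1 nor Bard1 showed a shift beyond the spread of its libraries. Blm read 4.96 and 8.25 CPM in Flag_RIP and 6.78 and 10.3 CPM in HU_Flag_RIP, against 5.38 and 8.80 CPM in IgG_RIP. Rad54l read 6.51 and 7.87 CPM in Flag_RIP and 7.17 and 10.8 CPM in HU_Flag_RIP, against 3.58 and 7.28 CPM in IgG_RIP. Xrcc3 read 1.65 and 4.50 CPM in Flag_RIP and 3.06 and 2.46 CPM in HU_Flag_RIP, against 1.39 and 2.03 CPM in IgG_RIP. Of these 3 genes none passed an unadjusted p of 0.05.

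The groups also overlapped for most of the Fanconi genes. Fancm read 12.6 and 10.5 CPM in Flag_RIP and 13.2 and 8.70 CPM in HU_Flag_RIP, against 10.6 and 12.5 CPM in IgG_RIP. Ube2t read 6.71 and 7.75 CPM in Flag_RIP and 6.24 and 5.75 CPM in HU_Flag_RIP, against 3.38 and 7.11 CPM in IgG_RIP. Fancl read 4.57 and 5.75 CPM in Flag_RIP and 3.19 and 2.46 CPM in HU_Flag_RIP, against 3.58 and 5.59 CPM in IgG_RIP. At least 1 Flag_RIP library of Ube2t and of Fancl lay between the IgG_RIP libraries. Fanci read 5.74 and 6.62 CPM in Flag_RIP and 4.52 and 8.70 CPM in HU_Flag_RIP, against 9.36 and 5.92 CPM in IgG_RIP. Fancd2 read 4.96 and 4.25 CPM in Flag_RIP and 3.99 and 9.52 CPM in HU_Flag_RIP, against 1.19 and 4.74 CPM in IgG_RIP. Fance read 3.01 and 6.0 CPM in Flag_RIP and 3.72 and 11.7 CPM in HU_Flag_RIP, against 5.77 and 3.89 CPM in IgG_RIP. For Fancd2 and Fance the second HU_Flag_RIP library was the highest of the 6. Fancc read 2.04 and 2.50 CPM in Flag_RIP and 2.52 and 2.13 CPM in HU_Flag_RIP, against 0.996 and 3.22 CPM in IgG_RIP. The 6 genes below 20 counts were Rad51b, Rad52, Fancb, Fancf, Fancg and Fan1.

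**Figure D5:**
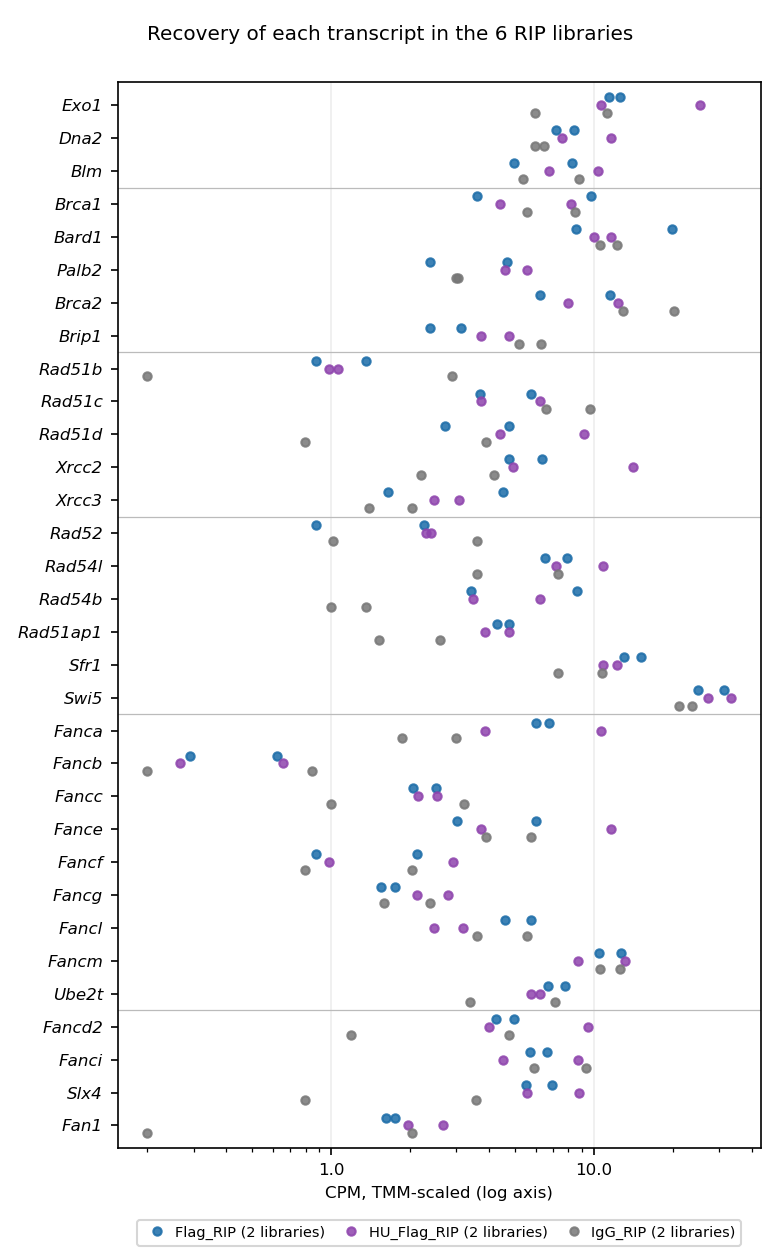
TMM-scaled CPM (log axis) of the 32 genes in the RIP libraries, with 1 point per library for Flag_RIP, HU_Flag_RIP and IgG_RIP. The Rad54b points of both Flag groups, from 3.40 to 8.62, lie to the right of the IgG points at 0.996 and 1.35, while for most genes the points of the 3 groups interleave.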

How the data were processed

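RNA-seq was measured in 4 groups and RIP in 3, with 2 libraries each. Per the file headers, the authors deposited FPKM with confidence bounds for the RNA-seq libraries. The deposited RIP tables hold whole-number read counts per gene symbol. Per the submitters' processing notes the build was mm10 and the tools named, with no role given, were HTSeq 0.6.1, TopHat2 2.0.8, CASAVA 2.19, Cuffdiff 2.1.1 and Cufflinks 2.1.1. FPKM of a symbol with several loci were summed, and 1 gene marked as failed was left out. Of 24421 rows in the count tables, 27 read as dates and were left out (0.0206% to 0.0489% of counts).

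FPKM were tested with limma 3.58.1 (limma-trend, R 4.3.3) on log2(FPKM + 1) with the 2 groups compared in the fit; a gene was tested where either group averaged 1 FPKM or more. For counts, edgeR 4.0.16 gave the quasi-likelihood test, after TMM scaling and filterByExpr, from 1 fit of all 6 RIP libraries; DESeq2 1.42.0 was an alternative. The edgeR standard errors are approximate, from the fold change and its F value. Adjusted p-values are Benjamini-Hochberg values over all genes tested, called under 0.05. The fits were also run on simulated data with known changes in a small part of the genes. In the RNA-seq comparisons far more genes were called, so that run is no check on these calls. The depths of FPKM libraries and the implied transcript lengths are estimates, since the bounds also carry the uncertainty between isoforms.

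The members, role groups and gene lists were chosen with earlier results of these data known. Values in every library are given for genes called in mESC against MEF or in the knockdown and for those averaging 20 counts or more in a RIP group; other pathway genes are named by the smallest adjusted p, at most 6 a comparison. Promoters are RefSeq sequences. Alternatives covered the pseudocount (0.1), the filter (none, or 5 FPKM), scaling, the groups in the fit, a replicate block and each library left out.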

Additional observations from a re-analysis of the deposited data

How the results depend on the processing

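All 23 genes called in mESC against MEF, all 8 in the knockdown and all 12 in KD_control against mESC kept their direction under every alternative run, and 6, 2 and 2 of them kept their call throughout. Leaving out 1 library gave 6 to 23 higher and 0 to 1 lower genes for mESC against MEF, 0 to 9 and 2 to 15 for the knockdown, 1 to 14 and 1 to 11 for KD_control against mESC, and 0 to 1 higher for Flag_RIP against IgG_RIP, where the lone library of a group is assumed to vary like the others. In the knockdown, the count of higher genes was 0 with a common sum and 2 with all 8 libraries in the fit, and that of lower genes was 4 with a common sum. With library size alone in place of TMM, 3 genes (Brca2, Brip1 and Rad51c) were lower in Flag_RIP and 2 (Brca2 and Rad51c) in HU_Flag_RIP than in IgG_RIP, where the median of all genes fell to -0.87 and -0.88. The E2F-type count was 14 with heptamers in place of 4. The cause of these changes was not tested. Median-ratio scaling moved the median of all genes for mESC against MEF to -0.02, and a common sum moved it for the knockdown to 0.02 and for KD_control against mESC to 0.02.

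The replicate numbers were not taken to pair the libraries, since no label ties a number to a shared batch. Replicate deviations correlated across genes at -0.551 between mESC and MEF, 0.0125 between Dppa5a_KD and KD_control, 0.0556 between KD_control and mESC, -0.0101 between Flag_RIP and IgG_RIP, -0.0309 between HU_Flag_RIP and IgG_RIP and 0.357 between HU_Flag_RIP and Flag_RIP, where libraries with the same number deviated together. With the replicate block, 21 genes were higher in mESC than in MEF (not Rad51b and Fancc), 3 were higher and 8 lower in the knockdown, 6 and 4 in KD_control against mESC (not Xrcc2, Blm and Dna2), and 1 (Rad54b, edgeR adjusted p = 0.043, against 0.096 without the block) was higher in Flag_RIP than in IgG_RIP. The crossed replicate block for mESC against MEF, chosen after seeing the data, gave 25 higher and 0 lower genes.

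Over all genes, the knockdown gave 1678 higher (972 with all 8 libraries in the fit; 627 to 3734 with 1 library left out) and 2940 lower (1696 at 5 FPKM, 1660 with a common sum; 1788 to 5702). mESC against MEF gave 3943 and 3361 (1071 to 3775 and 1764 to 3443). KD_control against mESC gave 3336 higher (2073 at 5 FPKM; 1427 to 6714) and 1884 lower (438 to 4371). Flag_RIP against IgG_RIP gave 121 higher (64 with library size alone, 230 without a filter, 236 with the replicate block; 16 to 135) and 122 lower (2214, 203 and 272, and 195 with 2 groups in the fit; 14 to 113). HU_Flag_RIP against IgG_RIP gave 151 higher (92, 278 and 291; 10 to 126) and 149 lower (2617, 254 and 326; 13 to 126). HU_Flag_RIP against Flag_RIP gave 15 higher (26 without a filter, 6 with 2 groups in the fit, 27 with the replicate block; 9 to 15) and 49 lower (35 to 56).

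Reversals of log2 fold changes touched uncalled genes near 0. With 1 library left out, Swi5 ranged from -0.84 to 0.23 in mESC against MEF. In the knockdown the same fits gave Brca1 -0.11 to 0.36, Bard1 -0.44 to 0.011, Brip1 -0.16 to 0.18, Blm -0.084 to 0.38, Sfr1 -0.23 to 0.044, Fancg -0.38 to 0.11, Fanci -0.057 to 0.40 and Slx4 -0.34 to 0.050, and a common sum gave Xrcc2 0.059, Rad54l 0.016 and Sfr1 0.053. In KD_control against mESC, leaving out 1 library gave Brca1 -0.010 to 0.16, Palb2 -0.049 to 0.21, Xrcc3 -0.026 to 0.084 and Fancd2 -0.091 to 0.63. Median-ratio scaling gave Brca1 -0.041, Palb2 -0.028, Xrcc3 -0.080 and Fancg -0.049 there, and a common sum gave Brca1 -0.11, Palb2 -0.088, Brip1 -0.019, Xrcc3 -0.14 and Fancg -0.11.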
